A study of Mus musculus with 5 samples.

Results

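In the ubiquitin-proteasome route of protein breakdown in a muscle fibre, a ubiquitin ligase transfers ubiquitin to a target protein, which the proteasome then degrades. Trim63 (MuRF1) and Fbxo32 (atrogin-1) are the best known of these ligases in skeletal muscle, and their transcripts rise in wasting muscle when FoxO transcription factors become active. The other ligases described here belong to the same families or have been placed in the same control of muscle mass. They are 10 genes, chosen by name and not by their values, out of 35275 genes in the table, namely the TRIM genes Trim63, Trim55, Trim54 and Trim32, the F-box genes Fbxo32, Fbxo30, Fbxo21, Fbxo31 and Fbxo40, and the SOCS-box gene Asb2. All 10 were found, all 10 reached a mean of 1 FPKM (reads scaled to gene length and to the total reads of the library), and none was at 0 in any library.

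RNA came from the gastrocnemius of female NSG mice labelled wild type, aged 12 weeks, which had received extracellular vesicles of MCF-10A/miR122 cells into the tail vein. NSG mice lack mature T, B and natural killer cells, and MCF-10A is a human mammary epithelial line without tumour-forming ability. About 10 µg of vesicles was given 2 times a week for 5 weeks, 10 injections in all, and muscle was collected 2 days after the last one. The 5 samples form 1 group, so no fold change against untreated muscle is given, and the labels do not state outright that each sample is a separate animal. Every spread below is that between these 5 samples, and a p-value from them measures no more than that.

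Library totals, which were recovered from the deposited values, ran from 16674504 to 25407988 reads. The tissue label was met by its markers, with 8 of 8 fast-fibre genes present at 3546 to 32368 FPKM on average. Libraries 2 and 3 stood apart. In library 2 all 8 slow-fibre markers were highest, with a summed level of 4365 FPKM against 1303 to 1942 FPKM in the others. In library 3 all 8 markers of regenerating fibres were highest (summed level 239.0 against 50.1 to 97.1 FPKM), as were all 8 of macrophages (356 against 91.6 to 121 FPKM), 6 of 8 of fibroblasts (1172 against 627 to 834 FPKM), all 6 of adipocytes (528 against 209 to 370 FPKM) and 5 of the 6 markers of denervated fibres and junctions that reached 1 FPKM (the list summed to 65.5 against 25.0 to 33.9 FPKM). The 6 endothelial markers summed to 76.2 FPKM in library 3 against 78.4 to 99.9 FPKM, and the 6 erythroid markers to 1029 against 328 to 501 FPKM. No marker was at 0 in all libraries, and 2 were at 0 in a single library, the fusion gene Mymk in library 1 and the haemoglobin gene Hba-a2 in library 2. The part of these differences in the results below was not tested, and in whole tissue fewer cells of a type cannot be told apart from less RNA per cell.

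The promoters of 5 of the ligase genes are shown because 3 of them, Trim63, Asb2 and Fbxo31, had their highest level in library 4 and their lowest in library 3, while Fbxo30 did the reverse and Fbxo40 had the smallest spread in the deposited values. They were chosen with these values known, and the traits of Fbxo30 and Fbxo40 did not hold under another scaling of the libraries, given below. Each window covers 250 bases before and 50 after an annotated start, is written 5′ to 3′ on the strand of the gene, and comes from RefSeq on GRCm38.p6, in which 8 of the 10 genes were matched, with 10 windows. Fbxo32 and Trim55 were not matched, so their promoters were not searched. Capitals mark matches on either strand to the FoxO core TGTTTAC, the glucocorticoid receptor hexamer AGAACA, the E-box CAGCTG, the TATA box TATAAA, the MEF2 motif or the CArG box bound by serum response factor.
Trim63, chr4:134314870-134315169, plus strand: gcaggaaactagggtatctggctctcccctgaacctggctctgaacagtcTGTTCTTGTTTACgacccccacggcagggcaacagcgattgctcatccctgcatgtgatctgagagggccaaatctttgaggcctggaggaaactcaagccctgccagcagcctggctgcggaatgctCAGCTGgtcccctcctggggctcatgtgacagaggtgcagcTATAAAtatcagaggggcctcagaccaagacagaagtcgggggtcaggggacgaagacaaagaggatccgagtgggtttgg
Asb2, upstream start, chr12:103355952-103356251, minus strand: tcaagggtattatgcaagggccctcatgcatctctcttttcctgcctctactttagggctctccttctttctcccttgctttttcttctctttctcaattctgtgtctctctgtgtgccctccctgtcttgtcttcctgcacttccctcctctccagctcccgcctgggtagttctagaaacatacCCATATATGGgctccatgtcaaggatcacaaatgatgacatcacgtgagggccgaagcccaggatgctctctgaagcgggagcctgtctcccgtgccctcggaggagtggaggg
Fbxo31, chr8:121578757-121579056, minus strand: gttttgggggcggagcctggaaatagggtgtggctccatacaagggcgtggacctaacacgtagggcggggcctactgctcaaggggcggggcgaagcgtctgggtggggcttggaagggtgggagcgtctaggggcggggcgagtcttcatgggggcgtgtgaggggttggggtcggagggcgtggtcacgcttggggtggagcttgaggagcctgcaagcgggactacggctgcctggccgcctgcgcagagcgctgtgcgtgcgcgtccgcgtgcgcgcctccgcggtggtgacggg
Fbxo30, chr10:11281337-11281636, plus strand: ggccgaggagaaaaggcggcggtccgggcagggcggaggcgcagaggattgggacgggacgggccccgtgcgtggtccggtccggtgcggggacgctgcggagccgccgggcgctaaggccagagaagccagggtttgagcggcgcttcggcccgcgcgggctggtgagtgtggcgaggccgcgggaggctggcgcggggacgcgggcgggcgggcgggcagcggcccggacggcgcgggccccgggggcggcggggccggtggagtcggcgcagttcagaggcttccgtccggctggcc
Fbxo40, upstream start, chr16:36990418-36990717, minus strand: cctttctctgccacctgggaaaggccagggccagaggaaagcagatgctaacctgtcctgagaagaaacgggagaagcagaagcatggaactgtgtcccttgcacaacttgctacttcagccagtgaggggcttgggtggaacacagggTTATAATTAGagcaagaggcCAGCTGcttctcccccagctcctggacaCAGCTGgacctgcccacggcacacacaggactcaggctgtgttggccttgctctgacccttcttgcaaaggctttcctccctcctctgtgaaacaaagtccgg

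The Trim63 window held the FoxO core 194 bases before the start, directly after a glucocorticoid receptor hexamer on the other strand at 200 bases, an E-box at 72 bases and a TATA box at 31 bases. It was the only window of the 10 with a FoxO core, which 3.65% of 32851 promoters of the same length hold, and the only one with a TATA box (13.6% of promoters). Fbxo32 and Trim55 have no window among the 10, so whether their promoters hold these motifs is not known here. The Asb2 window held a CArG box 64 bases before the start (1.63% of promoters), and the Fbxo40 window a MEF2 motif at 101 bases (3.19%) and E-boxes at 81 and 53 bases (16.3%), while the glucocorticoid receptor hexamer is in 19.0%. Neither Fbxo31 nor Fbxo30 held any of the 6 motifs, and their windows were 69.7% and 79.7% G and C, against 57.0% for Trim63, 53.0% for Asb2 and 56.0% for Fbxo40. The Fbxo30 window lies wholly within the GENCODE span of that gene, 11281330 to 11298052. None of its bases is upstream of the GENCODE start. An E-box was found in windows of 5 of the 8 matched genes. A match is a match of letters and shows no binding.

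The muscle RING-finger proteins sit on the sarcomere and on microtubules and mark myofibrillar proteins, and their genes covered a wide range. Trim54, which encodes MuRF3 (chromosome 5, 31116712 to 31137630), was the highest of all 10, with 169, 163, 221, 210 and 159 FPKM in libraries 1 to 5 and a mean of 184 ± 28.8 FPKM (SD, n = 5). Libraries 3 and 4 were high and the other libraries lay close together. Of the annotated exon bases of Trim54, 26.6% are shared with the antisense transcript Gm15469, and with no strand setting given in the sources used here, reads of both cannot be told apart. Trim63 (chromosome 4, 134315120 to 134329629) had 136, 118, 96.9, 185 and 123 FPKM, a mean of 132 ± 32.8 FPKM. Library 4 was the high one and library 3 the low one, a span of 1.91-fold. Trim55, which encodes the titin-binding MuRF2 (chromosome 3, 19644474 to 19692421), had 23.8, 17.4, 17.5, 17.7 and 18.5 FPKM, a mean of 19.0 ± 2.75 FPKM. In these deposited values libraries 2 to 5 lay close together and library 1 lay above them. Under the other scaling of the libraries, given below, library 1 was at 22.9 FPKM. Libraries 4 and 5 were then at 19.7 and 19.8 FPKM and libraries 2 and 3 at 16.2 and 16.4 FPKM.

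**Figure D1:**
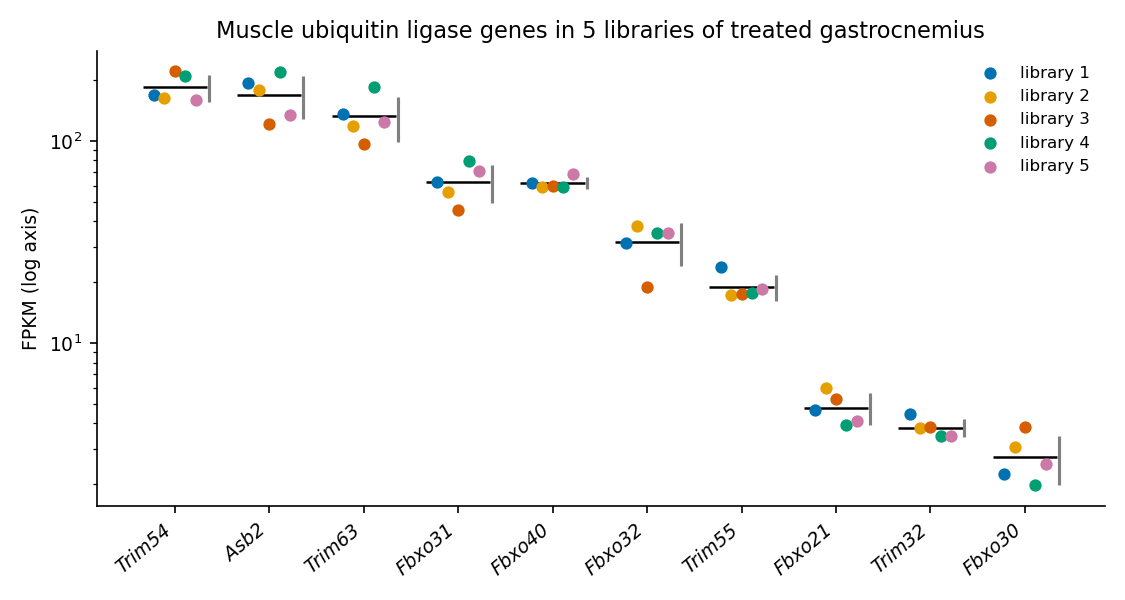
FPKM of each ubiquitin ligase gene on a log axis, genes ordered by mean; each point is 1 library, the black line is the mean and the grey bar 1 SD on either side (n = 5). Trim54, Asb2 and Trim63 form the top at 184, 169 and 132 FPKM, and Fbxo21, Trim32 and Fbxo30 the bottom at 4.80, 3.81 and 2.73 FPKM.

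The make-up of MuRF transcripts differed most in library 3. Trim54 took 55.1% ± 6.18 of the summed FPKM of the 3 genes, Trim63 39.2% ± 6.04 and Trim55 5.74% ± 1.09 (SD, n = 5). These shares rest on the gene lengths behind the deposited values. With annotated exon lengths the means were 184 FPKM for Trim54, 87.6 for Trim63 and 12.8 for Trim55, which gives Trim54 a larger share. The shares were not computed again with those lengths. The share of Trim63 was 28.9% in library 3 and 39.7% to 44.9% in the other libraries, and that of Trim54 was 65.8% in library 3 and 50.9% to 54.5% in the others. Trim54 lay above Trim63 in all 5 libraries. The proteins encoded by these genes can pair with each other, and transcript shares say nothing of the protein pool.

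**Figure D2:**
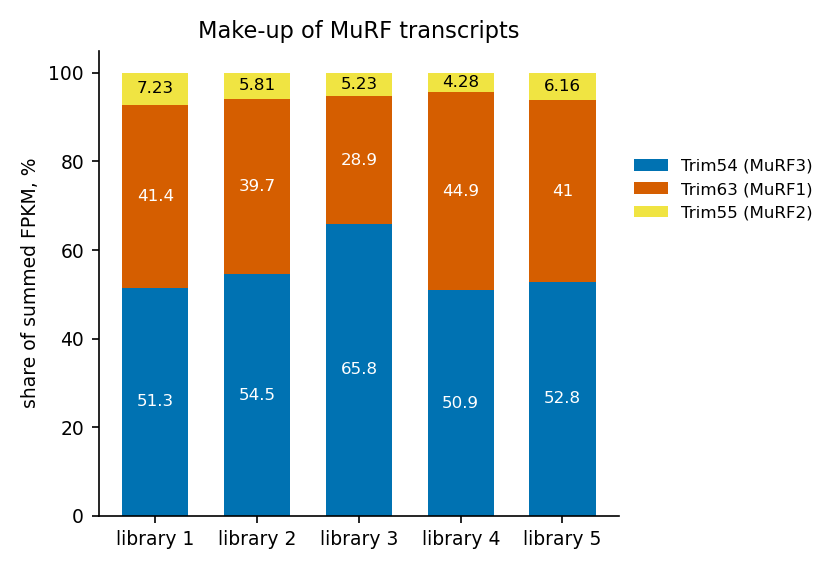
Share of each MuRF gene in the summed FPKM of Trim54, Trim63 and Trim55, in percent, 1 bar per library. Library 3 has the smallest share of Trim63, 28.9%, and the largest of Trim54, 65.8%. The shares rest on the gene lengths behind the deposited values.

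Trim32, a ligase for desmin and actin whose human counterpart is mutated in a limb-girdle muscular dystrophy, was among the lowest of the 10. It had 4.45, 3.82, 3.83, 3.48 and 3.47 FPKM, a mean of 3.81 ± 0.398 FPKM (SD, n = 5). Library 1 was the high one. The gene (chromosome 4, 65604986 to 65616238) lies within the span of Astn2 on the opposite strand, with no shared exon base, and Astn2 was at 0.859 FPKM.

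F-box proteins bring a target to the SCF ligase complex, and here Fbxo32, the best known of them, was not the most abundant. Fbxo31 (chromosome 8, 121549440 to 121578806), which is known for the breakdown of cyclin D1, had 62.2, 55.9, 45.3, 79.8 and 70.9 FPKM, a mean of 62.8 ± 13.3 FPKM (SD, n = 5). As for Trim63, library 4 was high and library 3 low. Fbxo40 (chromosome 16, 36963460 to 36990467), a muscle ligase for the insulin receptor substrate Irs1, had 61.9, 59.3, 59.8, 58.9 and 68.9 FPKM. Its mean of 61.8 ± 4.15 FPKM gave a coefficient of variation of 6.72%, the smallest of the 10 genes in the deposited values, and library 5 was the one above the rest. After median-of-ratios scaling, which sets the libraries to a common median gene, it was 12.4%, above Trim32 at 7.63% and Fbxo21 at 11.0%. Fbxo32 (chromosome 15, 58175879 to 58214932), whose known targets include Myod1 and the translation factor Eif3f, had 31.2, 38.0, 18.9, 34.9 and 34.9 FPKM. Library 3 was well below the others, and without it the mean was 34.8 ± 2.80 FPKM (SD, n = 4) and the coefficient of variation 8.07% in place of 23.8%. The antisense transcript Gm15943 shares 2.67% of the exon bases of Fbxo32 and was at 0.297 FPKM.

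Fbxo21 and Fbxo30, also known as FoxO targets in wasting muscle, were the lowest of the F-box genes described here. Fbxo21 (SMART; chromosome 5, 117976730 to 118010201) had 4.68, 6.0, 5.26, 3.93 and 4.11 FPKM, a mean of 4.80 ± 0.854 FPKM (SD, n = 5), with library 2 high and libraries 4 and 5 low. Fbxo30 (MUSA1, a ligase held down by BMP signalling; chromosome 10, 11281330 to 11298052) had 2.25, 3.07, 3.84, 1.98 and 2.51 FPKM, a mean of 2.73 ± 0.739 FPKM. Its high library was library 3 and its low one library 4, opposite to Trim63, Fbxo31 and Asb2, but after median-of-ratios scaling library 1 was its lowest, at 2.16 against 2.21 FPKM in library 4. Fbxo31 and Fbxo40 each took 38.1% of the summed FPKM of the 5 F-box genes, Fbxo32 19.1% ± 3.29, Fbxo21 3.0% ± 0.808 and Fbxo30 1.73% ± 0.706. These shares also rest on the gene lengths behind the deposited values. With annotated exon lengths the mean of Fbxo31 was 49.9 FPKM and that of Fbxo40 57.5 FPKM.

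Asb2, the substrate-binding part of a CUL5 ligase known for targeting filamins and desmin, was the second most abundant. It had 194, 178, 121, 219 and 134 FPKM (chromosome 12, 103321142 to 103356001), a mean of 169 ± 41.0 FPKM (SD, n = 5). Libraries 4 and 1 were high and libraries 3 and 5 low, a span of 1.81-fold. The antisense gene Gm15523 lies within its span without a shared exon base and was at 0.420 FPKM.

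Within their gene families, taken by symbol, most of these ligases were near the top. Among 56 Trim genes, Trim54, Trim63 and Trim55 ranked 2, 3 and 5 and Trim32 ranked 20, and 27 of the 56 reached 1 FPKM. The highest Trim gene was Trim72 (MG53), a membrane repair protein and ligase of striated muscle, at 231 ± 78.6 FPKM (SD, n = 5). Among 36 Fbxo genes, Fbxo31, Fbxo40 and Fbxo32 held ranks 1, 2 and 3 and Fbxo21 and Fbxo30 ranks 13 and 18. Asb2 ranked 1 of 18 Asb genes, of which 16 reached 1 FPKM, and lay above Asb5, the next at 66.5 ± 5.86 FPKM. In the deposited values the members took 44.6%, 57.6% and 31.8% of the summed mean FPKM of the Trim, Fbxo and Asb families.

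**Figure D3:**
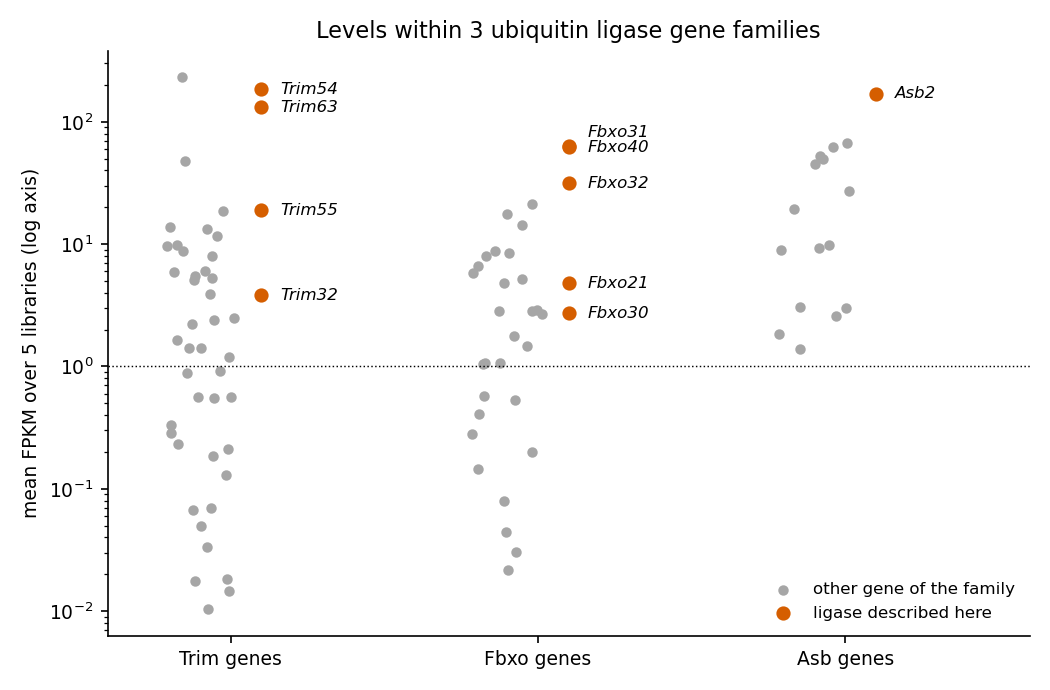
Mean FPKM over 5 libraries on a log axis for genes named Trim, Fbxo or Asb with a number; orange points are the ligases described here, grey points the other genes of each family, and the dotted line is 1 FPKM. Genes at 0.01 FPKM or less are not drawn. The highest Asb and Fbxo genes are orange, and the highest Trim gene, at 231 FPKM, is Trim72.

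Ordered by mean level, the genes ran Trim54, Asb2, Trim63, Fbxo31, Fbxo40, Fbxo32, Trim55, Fbxo21, Trim32 and Fbxo30. Of the 9 pairs of neighbours, 6 kept their order in all 5 libraries, and each of these had p = 0.0625 when the signs of the 5 differences were flipped in every way (exact permutation, two-sided). After Benjamini-Hochberg adjustment over the 9 exact permutation tests this was 0.0938. With 5 samples no lower p can be had, and no pair could pass 0.05. The widest step among neighbours was that of Trim55 over Fbxo21, a difference of 1.79 ± 0.30 on the log2(FPKM + 1) scale (SD, n = 5). Trim63 lay above Fbxo31 by 1.05 ± 0.16, Fbxo40 above Fbxo32 by 0.98 ± 0.38 and Asb2 above Trim63 by 0.35 ± 0.19.

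Steps between other neighbours did not keep their order. Trim54 exceeded Asb2 in 2 of 5 libraries, with a difference of 0.14 ± 0.43 on the log2(FPKM + 1) scale (p = 0.688 by the same exact permutation), and without library 3 the difference was -0.037. Fbxo31 and Fbxo40 differed by 0.00046 ± 0.29 (p = 1, same exact test), with Fbxo31 above in 3 of 5 libraries. Trim32 lay above Fbxo30 in 4 of 5 libraries, by 0.38 ± 0.29 (p = 0.125, same exact test). The order also rests on the gene lengths behind the deposited values, which for Trim63 came out at 1886 bases against 2842 annotated exon bases and for Fbxo21 at 3909 against 5545. With annotated exon lengths Fbxo40 came before Fbxo31 and Trim32 before Fbxo21, and the mean of Trim63 was 87.6 FPKM. The mean of Asb2 was then 129 FPKM, and Trim54 lay above it in all 5 libraries, by 0.53 ± 0.43 (p = 0.0625, same exact test). The number of neighbouring pairs in constant order was again 6, but the pairs were not all the same.

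All 10 genes varied between libraries by more than counting error, as did 87.9% of the 10710 genes that averaged at least 1 FPKM, in a chi-square test of reads with Benjamini-Hochberg adjustment over all of these genes. The reads recovered per library were 3048 to 8310 for Trim63, 5422 to 14044 for Asb2 and 2182 to 6149 for Fbxo32. Those of Trim32 were 204 to 326, and this gene came nearest to counting error (adjusted p = 0.0167 in that chi-square test). Without library 1 the spread of Trim55 and of Trim32 was within counting error, with adjusted p-values of 0.631 and 0.555 in the same chi-square test. The other 8 genes still passed without library 1. Counting error alone would give coefficients of variation of 1.06% for Asb2 to 6.28% for Trim32, whereas the observed ones ran from 6.72% for Fbxo40 to 27.1% for Fbxo30. After median-of-ratios scaling they ran from 7.63% for Trim32 to 32.6% for Trim63, with Fbxo40 at 12.4% and Fbxo30 at 21.6%.

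Against genes of like level, no ligase passed the adjusted test of spread, and neither did any other gene. The 8 slow-fibre markers, with a median coefficient of variation of 64.8%, did not pass it either. Missing this threshold therefore does not show a ligase to be steady. The median coefficient of variation of the 10 genes was 19.5%, against 16.3% over the 10710 genes, and 6 of the 10 exceeded 16.3%. In limma, which set each variance against that of genes of similar abundance, 0 of the 10 passed the adjusted threshold of 0.05, as did 0% of 10710 genes, and 0 of the 10 had an unadjusted p under 0.05, against 5.75% of all genes. Fbxo32 had the largest ratio of the 10, 4.54 (limma, unadjusted p = 0.0878), followed by Asb2 at 3.44 and Trim63 at 3.13, and Fbxo40 the smallest at 0.246.

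**Figure D4:**
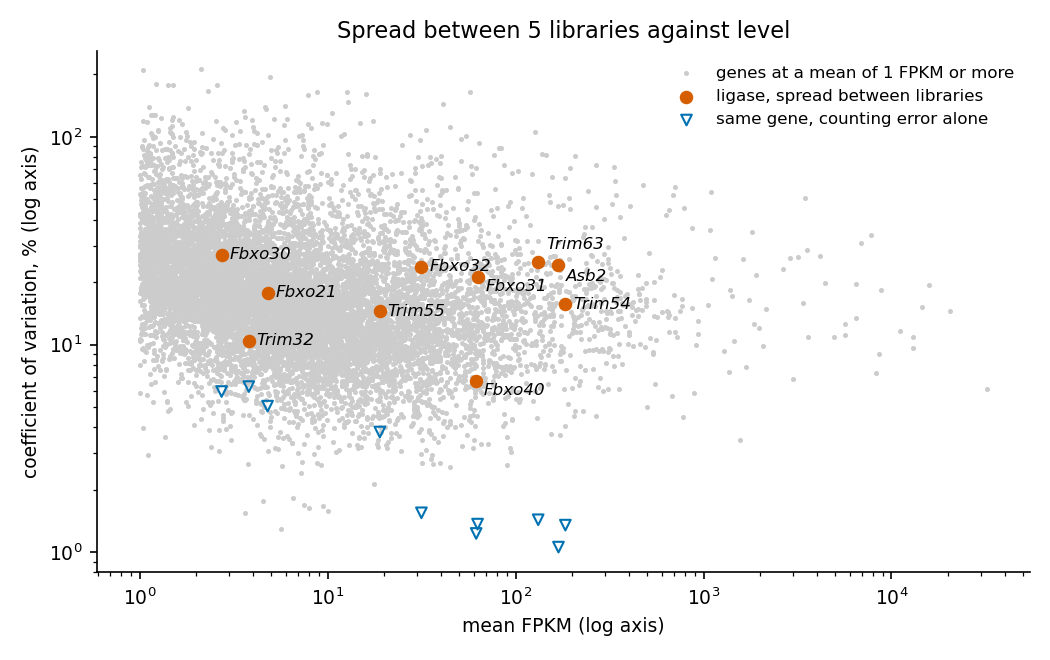
Coefficient of variation between 5 libraries in percent against mean FPKM, both on log axes; grey points are the 10710 genes tested, orange points the ligases and open triangles the counting error of the same genes. The ligases lie within the cloud of other genes, from 6.72% for Fbxo40 to 27.1% for Fbxo30, and above their own triangles.

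The ligases did not move as 1 group between libraries. Trim63, Fbxo31 and Asb2 were highest in library 4 and lowest in library 3, a combination held by 3.5% of genes at 1 FPKM or more. On the log2(FPKM + 1) scale they deviated from their own means by 0.52, 0.37 and 0.41 in library 4 and by -0.41, -0.44 and -0.45 in library 3. Fbxo32 was also lowest in library 3, by -0.68, so that 4 of the 10 genes were lowest there, against 17.1% of all genes. Fbxo30 showed the opposite order, 0.40 in library 3 and -0.30 in library 4, which 16.2% of genes share, and Trim54 was above its mean in both, by 0.27 and 0.20. Of the 10 genes, 2 were highest in library 1 (Trim55 and Trim32), against 21.2% of all genes, 2 in library 2 (Fbxo32 and Fbxo21), against 23.2%, 2 in library 3 (Trim54 and Fbxo30), against 37.4%, 3 in library 4, against 10.5%, and 1 in library 5 (Fbxo40), against 7.68%. None was lowest in library 1, where 10.2% of all genes were. Trim55 was lowest in library 2 (9.8% of all genes), Fbxo40, Fbxo30 and Fbxo21 in library 4 (38%) and Trim54 and Trim32 in library 5 (24.9%).

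Markers also differed between these libraries. Library 4, where Trim63, Fbxo31 and Asb2 were highest, had the largest summed level of fast-fibre markers, 106061 FPKM against 73813 to 98366 FPKM. Of those 8 genes, 5 were highest there. Their sum was smallest in library 2, where 7 of the 8 were lowest. It was 80941 FPKM in library 3, where 0 of the 8 were lowest. Library 3, where Trim63, Fbxo31, Asb2 and Fbxo32 were lowest, had the largest sums of macrophage, fibroblast, adipocyte and regenerating-fibre markers given above. Library 2, where Fbxo32 and Fbxo21 were highest, had the largest sum of slow-fibre markers. Their part in the levels of the ligases was not tested. Under median-of-ratios scaling, which shifted all genes by 0.16 in library 4 and by -0.10 in library 3 on the log2 scale, Trim63, Fbxo31 and Asb2 kept both extremes, a combination then held by 10.9% of genes, but Fbxo32 and Trim54 became highest in library 4 and Fbxo30 was lowest in library 1 and no longer in library 4. After that scaling 5 of the 10 genes were highest in library 4, against 27.5% of all genes, 4 were lowest in library 3, against 28.6%, and 4 were lowest in library 2, against 20.4%.

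**Figure D5:**
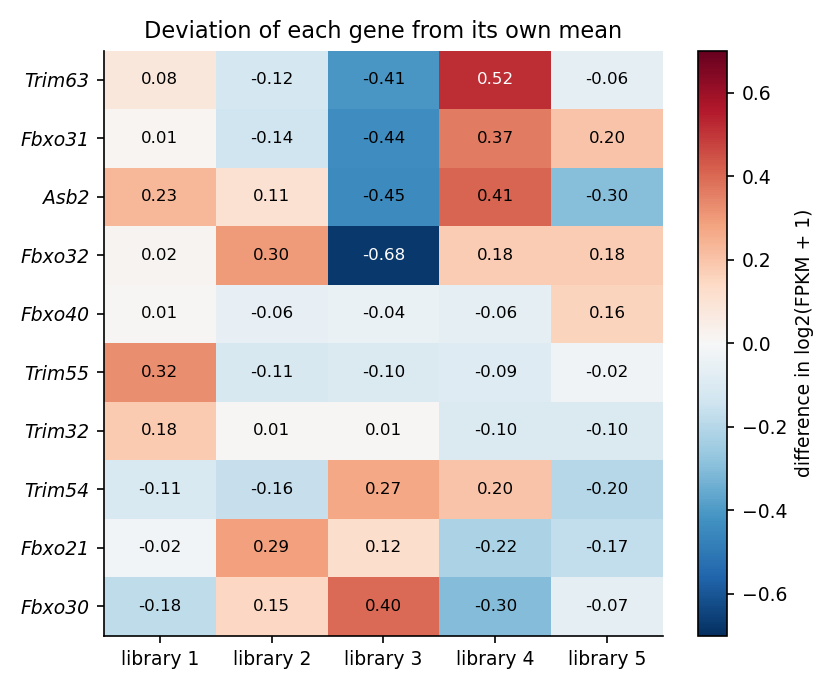
Difference of each ligase gene from its own mean over 5 libraries on the log2(FPKM + 1) scale, red above and blue below, genes in rows and libraries in columns. Trim63, Fbxo31, Asb2 and Fbxo32 are bluest in library 3 (-0.41 to -0.68), where Fbxo30 and Trim54 are red.

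The genes nearest in profile were found over the 5 libraries among the 10710 genes, by the root mean square difference of centred log2(FPKM + 1) values. Nearest to Trim63 were Cntfr, a receptor for ciliary neurotrophic factor (0.039), Slc43a1 (0.045) and Ubald2 (0.063). Cntfr had 25.5, 23.0, 18.5, 34.3 and 24.4 FPKM, the same order of libraries as Trim63. Nearest to Asb2 were Ypel3 (0.051), Mapk1ip1 (0.058) and Bcat2 (0.060), an enzyme of branched-chain amino acid breakdown. Nearest to Fbxo31 were Sar1b (0.047), Gm12854 (0.055) and F2rl3 (0.059). The closest genes to Fbxo32 were Mcee at 0.071, Tatdn1 at 0.088 and Iqcg at 0.099. Trim54 was nearest to Asl (0.029), Mak16 (0.029) and the autophagy receptor gene Sqstm1 (0.032). Trim55 was nearest to Zranb2 (0.015), the muscle sodium channel gene Scn4a (0.034) and Rtel1 (0.037), and Fbxo40 to Pter (0.012), Mapk14 (0.017) and Ube2f (0.021). Such distances over 5 libraries describe these samples only. Adding 1 before the log narrows the differences between libraries for low genes. Gm12854, F2rl3 and Iqcg are such genes, with means of 1.56, 1.16 and 1.49 FPKM. Among the ligases themselves the nearest pairs were Trim55 with Trim32 (0.10), Trim63 with Fbxo31 (0.14) and Trim32 with Fbxo40 (0.15), and Trim63 with Asb2 was at 0.17. Fbxo32 and Fbxo30 were farthest apart (0.55).

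The other genes of the pathway were taken from 7 lists. Every gene at 1 FPKM or more in 6 of these lists varied beyond counting error (4 of 4 ubiquitin genes, 10 of 10 activating and conjugating enzymes, 8 of 8 cullin-RING genes, 11 of 11 other ligases, 12 of 12 regulators and 13 of 13 reported targets), as did 4 of 5 deubiquitinases. These counts stand beside 87.9% of all genes and set no list apart. Of 4 ubiquitin genes, Ubb was highest at 319 ± 74.5 FPKM and Rps27a next at 156 ± 23.4 FPKM (SD, n = 5). Of 11 genes for activating and conjugating enzymes, 10 reached 1 FPKM. Ube2b, a conjugating enzyme known to rise in wasting muscle, was the highest at 178 ± 28.3 FPKM, with 185, 173, 134, 210 and 191 FPKM, and like Trim63 it was highest in library 4 and lowest in library 3. Ube2d3 followed at 105 ± 8.37 FPKM and was highest in library 3 in the deposited values. Of 8 genes of the cullin-RING frame that carries F-box and SOCS-box proteins, Elob was highest at 238 ± 39.5 FPKM and Nedd8, whose product activates cullins, was next at 95.0 ± 11.6 FPKM. Their median coefficient of variation was 7.87%, against 19.5% for the 10 ligases. Cul1 was at 22.4 ± 1.38 and Cul5 at 11.9 ± 1.84 FPKM, so that Fbxo31, Fbxo40, Fbxo32 and Asb2 lay above the cullin of their complex and Fbxo21 and Fbxo30 below it. These 2 cullins were named after their values were seen.

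Among 11 other ligases of muscle, Trim72 was the highest and Nedd4 the next, at 78.8 ± 7.93 FPKM (SD, n = 5). Trim72 was at 367 FPKM in library 3 and 178 to 227 FPKM in the others, so that it was highest where Trim63 was lowest. In the deposited values 10 of these 11 genes were lowest in library 4, against 38% of all genes, and none was highest there. Their median deviation in library 4 was -0.16 on the log2(FPKM + 1) scale. Median-of-ratios scaling shifted all genes by 0.16 in that library on the log2 scale, and the 11 genes were not counted again after it.

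Of 12 regulators known to act on these ligase genes, all 12 reached 1 FPKM. In the deposited values 3 were lowest in library 3, against 17.1% of all genes, and 6 in library 4, against 38%. They were not counted again after median-of-ratios scaling. Foxo4 was the highest at 64.4 ± 7.94 FPKM, with 69.8, 66.8, 50.6, 69.4 and 65.6 FPKM, so that library 3 was the low one, as for Fbxo32. Tfeb was next at 43.5 ± 5.83 FPKM, highest in library 4 at 53.2 and lowest in library 3 at 37.9 FPKM. Klf15, a glucocorticoid-induced factor, was named after its values were seen; it had 10.8 FPKM in library 3 and 16.2 to 18.7 FPKM in the others. Also named afterwards, the glucocorticoid receptor gene Nr3c1 had 7.65 to 16.5 FPKM, Foxo1 2.38 to 4.22 FPKM and Myog 6.45 to 30.1 FPKM. Nr3c1 and Foxo1 were among the 6 lowest in library 4, while Tfeb and Cebpb were highest there, and Myog, which is also one of the markers of regenerating fibres, was highest in library 3.

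Of 13 genes for reported targets, the light chain gene Mylpf was the highest at 11145 ± 1297 FPKM and the heavy chain gene Myh4 next at 6909 ± 2122 FPKM (SD, n = 5). Irs1, the target of the Fbxo40 protein, was named after its values were seen and had 2.98 ± 1.14 FPKM, against 61.8 ± 4.15 FPKM for Fbxo40. Of 5 deubiquitinase genes, which take ubiquitin off again, Usp19 was the highest at 57.6 ± 6.59 FPKM and Usp14 next at 12.7 ± 0.582 FPKM. In the deposited values all 5 were highest in library 1, against 21.2% of all genes. Median-of-ratios scaling shifted all genes by -0.06 in library 1 and by 0.097 in library 5 on the log2 scale. These 5 genes were not counted again after it.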

How the data were processed

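Poly-A messenger RNA of 5 samples was sequenced by a commercial provider, per the labels' protocols. The table deposited by the authors gives FPKM values per gene and library. Tools listed, per the submitters' processing notes, are edgeR, DESeq2, HTSeq 0.6.1, STAR 2.5 and TopHat, with the build mm10 and no roles or order. Annotation release, strand setting and treatment of multiply matching reads were not given in the sources used here. Symbols matched 34490 of 35275 identifiers, and positions come from GENCODE M21 (GRCm38, the assembly of mm10). No columns of other samples were used.

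Library totals were taken as the commonest total at which a low gene equals 1 read at its annotated exon length. Each gene was next given a length at which every library came out whole within 0.001 of a read, the shortest such length where every library above 0 held 10 reads or more and otherwise the one nearest the annotation. All 20840 genes above 0 came out whole (100%), 4544 of them at the annotated length; a multiple of a fitting length fits too, and a gene above 0 in few libraries fits more easily. Such counts were used for counting error only, and not for a test between groups.

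Spread was tested with limma 3.58.1 in R 4.3.3 on log2(FPKM + 1) for the 10710 genes averaging at least 1 FPKM. The ratio of variance to abundance trend was referred, one-sided, to an F distribution (4 and 3.93 degrees of freedom). The trend and the 3.93 degrees of freedom were fitted to these same genes. Both that and the chi-square test were tested on simulated data. A gene that misses the limma threshold is not shown to be steady. Levels were compared within libraries with an exact sign-flip permutation test over 32 sign patterns. Alternatives covered the pseudocount, the filter, the scaling, gene lengths and each library left out. Other software was matplotlib 3.10.9, pandas 2.3.3, scipy 1.17.1, numpy 2.4.6 and Python 3.11.15.

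The members and lists were chosen with earlier results of these data known. All 10 members were named, with the 2 highest genes of each other list, the highest gene of each family and the 3 nearest genes of each member at 10 FPKM or more; exceptions are stated where they occur, and Asb5, Cebpb and the markers Mymk and Hba-a2 were also named after their values were seen. Of 9 marker lists the sums are given in place of single genes.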

Additional observations from a re-analysis of the deposited data

Results flagged for a closer look

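Trim55 was the only one of 19 quantities (10 gene levels and 9 ratios of neighbours) in which the gap of 1 library to the rest passed the critical value of Dixon's test. Library 1 had 23.8 FPKM and the other libraries 17.4 to 18.5 FPKM, and the gap from library 1 to the nearest library took 0.824 of the whole range, above the critical value of 0.71 for 5 samples. Fbxo40 came close at 0.701 with library 5 high, as did the ratio of Trim63 to Fbxo31 at 0.680 with library 5 low, and Fbxo32 was at 0.642 with library 3 low. Chance alone puts about 1 such group in 20 past that value. Recovered reads of Trim55 numbered 976 in library 1 and 522 to 840 in the others. The gap was taken in the deposited values. After median-of-ratios scaling Trim55 had 22.9, 16.2, 16.4, 19.7 and 19.8 FPKM in libraries 1 to 5, where library 1 stood less apart. Dixon's test was not repeated on those values. The cause was not tested.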

How the results depend on the processing

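The 23 recomputed counts of genes and pairs kept within 1.5 times their first value. With 1 library left out, the number of neighbouring pairs in constant order ran from 6 to 7, the number of ligases past counting error from 8 to 10 and the number past the limma test stayed at 0. Of the recomputed levels and ratios, 123 kept their direction or moved by less than 1 SD, 4 levels moved further and 6 ratios turned round. With 1 library left out, the log2 ratio of Trim54 to Asb2 ran from -0.037 (without library 3) to 0.23, and that of Fbxo31 to Fbxo40 from -0.11 (without library 4) to 0.099, below 0 also without library 1 or 5. The ratio of Fbxo31 to Fbxo40 was -0.22 with annotated exon lengths, an alternative chosen after seeing the data. With those lengths the ratio of Fbxo21 to Trim32 turned to -0.13, and Trim63, Trim55, Fbxo21 and Fbxo40 moved to 87.6, 12.8, 3.38 and 57.5 FPKM. The ratio of Trim54 to Asb2 was 0.53 with them. No paired analysis was possible because the samples form 1 group. Depth limits Fbxo30, Trim32 and Fbxo21 most, with 204 to 435 recovered reads per library. Without an untreated group, nothing here shows an effect of the vesicles.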
